A study of Mus musculus with 16 samples.

Results

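Matrix metalloproteinases and their tissue inhibitors were followed in mouse bone marrow-derived macrophages (BMDMs), macrophages grown in culture from marrow precursors. The genes were 6 metalloproteinases, Mmp8, Mmp9, Mmp12, Mmp13, Mmp14 and Mmp19, and 3 TIMPs, Timp1, Timp2 and Timp3. They were chosen by gene name, with earlier results of these data known, and all 9 were found among the 55487 genes of the count table. RNA was sequenced from 16 samples in 6 groups, all of BMDMs from wild-type Balb/c mice aged 8 weeks. The groups were DMEM, the plain culture medium (n = 2), DMEM with ruxolitinib (DMEM + Rux, n = 3), medium conditioned by 4T1 mouse mammary tumor cells (CM, n = 3), CM with 0.5 µM ruxolitinib (CM + Rux, n = 3), the same treatment under a label of 2 h (CM + Rux 2 h, n = 2), and CM with 0.5 µM ruxolitinib and 0.8 µM IKK-16 (CM + Rux + IKK-16, n = 3). Ruxolitinib blocks JAK1/2, the kinases upstream of STAT factors, whereas IKK-16 acts on the IκB kinases that switch on NF-κB. The CM + Rux samples have a label of 4 h, the dose of ruxolitinib in DMEM is not given in the labels, and neither labels nor methods say what the 2 h label refers to. IKK-16 was given only together with ruxolitinib, in a culture of macrophages alone that received factors of the tumor cells but no tumor cells. The labels do not say that replicates came from separate animals or cultures, so p-values measure the spread between these samples, which may be technical.

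Metalloproteinases are zinc-dependent enzymes that are made as inactive proenzymes and cleave collagens, elastin and other parts of the extracellular matrix as well as cytokines and receptors. TIMPs bind the active site of the mature enzymes and block them, and TIMP2 also takes part in the activation of pro-MMP2 at the cell surface by MMP14. Macrophages are a known source of both sides of this balance, with MMP12, the macrophage elastase, as their most characteristic member.

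Within the series the family members fall on 6 chromosomes (GRCm38, positions of whole genes from the deposited count table). Mmp13 (chr9:7272514-7283331), Mmp12 (chr9:7344381-7369499) and Mmp8 (chr9:7558456-7568485) lie in a cluster of 10 metalloproteinase genes that spans 427072 bases. Mmp9 lies at chr2:164940780-164955850, Mmp14 at chr14:54431612-54445364, Mmp19 at chr10:128790910-128800824, Timp1 at chrX:20870166-20874735, Timp2 at chr11:118301069-118355740 and Timp3 at chr10:86300372-86349506. Timp1 lies inside Syn1 and Timp3 inside Syn3, both on the opposite strand, and reads were counted by strand. The sequences below are shown because Mmp13, Mmp14 and Timp1 had the largest rises in CM and were the members called lower when IKK-16 was added. Each is the 250 bases before the gene's start, 5′ to 3′ on the gene's strand, from RefSeq (GRCm38.p6). Capitals mark letters of 2 motifs searched on both strands, AP-1 (TGANTCA) and NF-κB (GGG, then 5 bases of any kind, then CC).
Mmp13, chr9:7272264-7272513, plus strand: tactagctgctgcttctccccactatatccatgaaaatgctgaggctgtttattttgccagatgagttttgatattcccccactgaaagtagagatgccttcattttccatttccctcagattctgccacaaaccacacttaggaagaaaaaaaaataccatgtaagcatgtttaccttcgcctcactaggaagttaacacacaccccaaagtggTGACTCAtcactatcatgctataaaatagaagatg
Timp1, chrX:20869916-20870165, plus strand: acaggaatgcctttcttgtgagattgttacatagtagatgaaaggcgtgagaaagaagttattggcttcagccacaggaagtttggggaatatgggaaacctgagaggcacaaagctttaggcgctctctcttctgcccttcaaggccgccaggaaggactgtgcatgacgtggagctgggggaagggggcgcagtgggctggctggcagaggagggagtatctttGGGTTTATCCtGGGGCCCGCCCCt
Mmp14, chr14:54431348-54431597, plus strand: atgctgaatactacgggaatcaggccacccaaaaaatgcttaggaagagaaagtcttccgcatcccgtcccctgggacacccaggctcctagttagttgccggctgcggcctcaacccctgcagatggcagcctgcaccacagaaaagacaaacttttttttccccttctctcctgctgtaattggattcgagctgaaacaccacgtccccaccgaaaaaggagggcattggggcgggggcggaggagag
The Mmp13 window holds TGACTCA, which begins 35 bases before the start, and no NF-κB letters. The Timp1 window holds 4 matches to the NF-κB letters within its last 24 bases, 3 of which overlap one another, and no AP-1 letters. The Mmp14 window holds neither. RefSeq promoters were found for 7 of the 9 members, with 2 starts for Mmp12. Mmp9 and Mmp19 had no entry and were not searched. AP-1 letters stand in 2 of the 7 (Mmp13 and the second start of Mmp12), NF-κB letters in 3 (Mmp12, Timp1 and Timp3), and the STAT letters TTCNNNGAA in 0. These counts are per gene, with Mmp12 counted through either of its 2 windows, whereas the shares that follow are per window. Of 32851 mouse promoter windows of the same length, 6.75% hold the AP-1 letters, 45.8% the NF-κB letters and 7.02% the STAT letters. These are matches of letters and not evidence of binding.

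Samples had 18449388 to 46215853 counts, of which the 9 members held 0.0600% to 0.190%. All 8 macrophage markers were above 1 CPM (counts scaled to a library of common size by relative log expression) in every group, with summed levels of 42390 to 43910 CPM in DMEM and 46270 to 55280 CPM in CM. Of 11 neutrophil markers, which bear on Mmp8 and Mmp9 because neutrophils store both enzymes, 9 were at or below 1 CPM in every group and Ly6g and Retnlg had 0 counts in all samples. The summed neutrophil level was 131 to 173 CPM in DMEM and 227 to 266 CPM in CM, nearly all of it from Csf3r, a receptor gene with a group mean of up to 250 CPM. The 8 epithelial markers that could show tumor cell RNA summed to 0 to 0.118 CPM in DMEM and 0.815 to 1.45 CPM in CM, and Krt5 and Krt14 had 0 counts in all samples. The fibroblast list (3 of 8 markers above 1 CPM in each group) summed to 22.6 to 30.0 CPM in DMEM and 26.9 to 30.5 CPM in CM, the osteoclast list (4 or 5 of 7) to 59.7 to 68.2 CPM in DMEM and 95.7 to 155 CPM in CM, the B cell list (Pax5 at 0 counts) to 1.15 to 1.21 CPM in DMEM and 0.122 to 0.267 CPM in CM, and the T and NK cell list (Cd3g, Ncr1 and Gzma at 0 counts) to at most 0.0552 CPM. The macrophage, neutrophil, epithelial, osteoclast and B cell sums thus did not overlap between DMEM and CM, and their part in the results was not tested. In the macrophage list Cd14 (2113 CPM in DMEM, 13560 CPM in CM), Itgam and Fcgr1 had higher means in CM. Its other markers, among them Lyz2 (34150 and 31320 CPM) and Csf1r (3560 and 2332 CPM), had lower means. In the osteoclast list Acp5 (13.55 and 95.75 CPM), Dcstamp and Ocstamp were higher, and Atp6v0d2 (43.16 and 15.29 CPM), Ctsk and Oscar were lower. The B cell sum was mostly Cd79b (1.14 and 0.142 CPM). In bulk RNA, fewer cells of a type and less RNA per cell cannot be told apart.

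Tumor CM raised the RNA of all 6 metalloproteinases and of Timp1 and Timp3, and lowered Timp2. This comparison asks what soluble factors of the tumor cells do to macrophages. All 9 members were called (adjusted p below 0.05 and a log2 fold change beyond 0.5), 8 higher and 1 lower, and no member's CM samples overlapped its DMEM samples. The share of all genes without such overlap, with 3 against 2 samples, was not computed. Among all 12372 genes tested, 20.9% were called higher and 24.1% lower. Timp3 passed the filter on low counts only because of samples with CM (all 3 CM samples and 1 CM + Rux + IKK-16 sample), so its difference there is not independent of the filter.

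Mmp13, a collagenase that cleaves fibrillar collagen, had the largest estimated rise of the metalloproteinases. Its levels in DMEM were 10.5 and 9.66 CPM, and in CM they were 407, 277 and 491 CPM. The lowest CM sample was thus far above both DMEM samples. The fold change was 38.7 (log2 fold change 5.28, SE 0.263, adjusted p = 3.2e-09). Mmp8, the neutrophil collagenase, was a low gene with 55 to 230 counts per sample. It had 2.01 and 3.27 CPM in DMEM and 8.01, 6.83 and 7.29 CPM in CM, a rise of 2.82-fold (log2 fold change 1.49, SE 0.393, adjusted p = 0.0045). Both Mmp8 and Mmp13 belong to the chromosome 9 cluster but differed in level per length, with 2.82 to 3.30 RPKM (CPM per kilobase of exon) for Mmp8 and 104 to 184 RPKM for Mmp13 in CM.

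Mmp9, a gelatinase that degrades denatured collagen and basement membrane, had 30.6, 33.4 and 29.9 CPM in CM. Its DMEM samples lay apart, with 18.6 CPM in replicate 1 and 6.34 CPM in replicate 2. The rise was 2.48-fold (log2 fold change 1.31, SE 0.306, adjusted p = 0.0020), and its size rested on which DMEM sample was used: the log2 fold change was 2.30 without DMEM replicate 1 and 0.75 without DMEM replicate 2. Mmp12, the macrophage elastase, had 290 and 200 CPM in DMEM and was the highest metalloproteinase there per length. In CM it had 733, 493 and 515 CPM, a rise of 2.37-fold (log2 fold change 1.24, SE 0.313, adjusted p = 0.0034).

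Mmp14, a membrane-anchored metalloproteinase that cleaves pericellular collagen and activates pro-MMP2, had 22.7 and 15.4 CPM in DMEM. In CM its levels were 469, 482 and 597 CPM, which is 27.0-fold higher (log2 fold change 4.75, SE 0.375, adjusted p = 1.7e-07). Mmp19, a secreted metalloproteinase with basement membrane substrates, had 27.2 and 26.9 CPM in DMEM and 193, 336 and 168 CPM in CM. Replicate 2 was the highest of the CM samples, and the rise was 8.60-fold (log2 fold change 3.10, SE 0.496, adjusted p = 9.9e-05).

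Among the inhibitors, Timp1, the soluble inducible TIMP, had few counts without CM. Its levels were 0.946 and 1.64 CPM in DMEM (32 and 40 counts) and 65.1, 128 and 68.9 CPM in CM. The 69.7-fold rise (log2 fold change 6.12, SE 0.640, adjusted p = 2.3e-06) was the largest estimate of the 9 members. Timp2, the constitutive TIMP, moved the other way. Its levels were 209 and 267 CPM in DMEM and 91.6, 119 and 127 CPM in CM, a fall of 2.11-fold (log2 fold change -1.08, SE 0.180, adjusted p = 0.00014). Timp3, which binds to the matrix, stayed low with 8 to 47 counts in any sample, at 0.236 and 0.573 CPM in DMEM and 2.0, 1.4 and 1.1 CPM in CM (log2 fold change 1.93, SE 0.430, adjusted p = 0.0014).

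The calls of Mmp8 and Mmp12 each depended on a DMEM sample: the adjusted p was 0.064 for Mmp8 without DMEM replicate 1 and 0.053 for Mmp12 without DMEM replicate 2, where the lone DMEM sample left is assumed to vary like the other groups. Scaling by relative log expression shifted the log2 fold changes of all genes by 0.31 compared with scaling by total counts, and after scaling the median of all genes was -0.005.

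**Figure D1:**
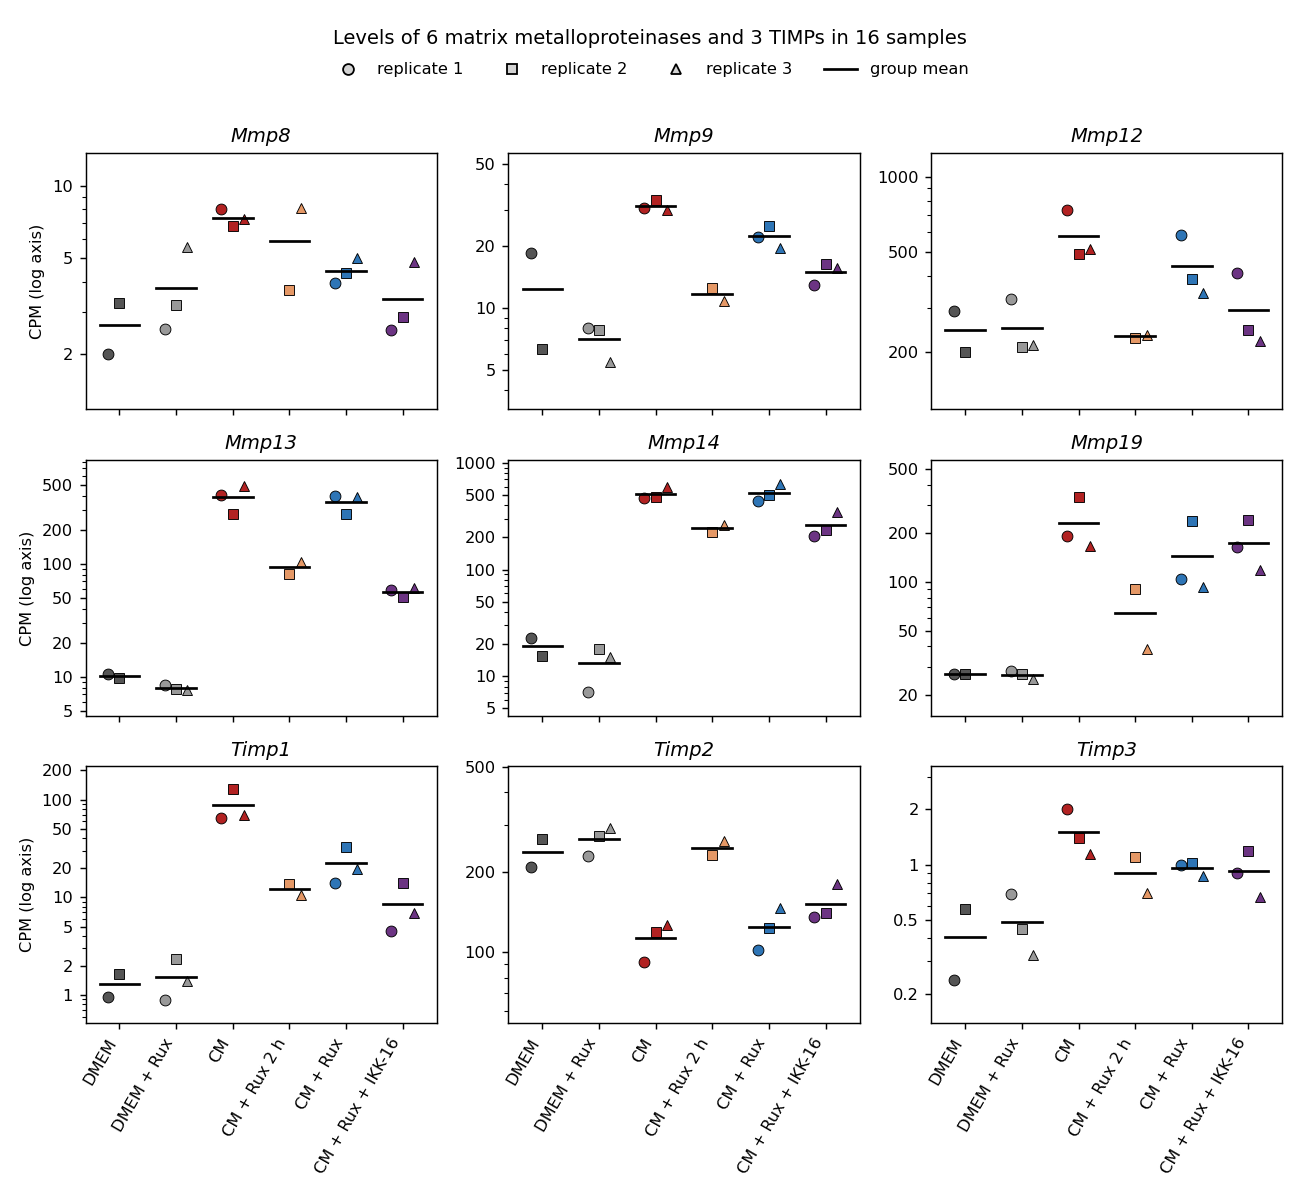
Levels of the 9 genes in each of the 16 samples (CPM, log axis, a separate range for each gene), with groups along the x axis, symbols for replicate numbers and a line at each group mean. Mmp13 and Mmp14 stood at 277 to 631 CPM in the samples of CM and CM + Rux against 7.20 to 22.7 CPM in the samples without CM, Timp1 fell from CM to CM + Rux, and Timp2 was lower in CM than in DMEM.

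Ruxolitinib in the presence of CM lowered Timp1, and the other 8 members were not called. This comparison asks which CM responses need JAK1/2 activity. Of the 9 members 1 was called lower and 0 higher, beside 2.13% and 1.20% of all genes tested. At an unadjusted p below 0.05 the edgeR test gave 2 lower (Timp1 and Mmp8) and 0 higher, and DESeq2 called 1 lower and 0 higher. Timp1 had 65.1, 128 and 68.9 CPM in CM and 14.0, 33.0 and 19.5 CPM in CM + Rux, so that the groups did not overlap. Replicate 2 was the highest sample in both groups, as it was in all 4 groups of 3 samples. Within the replicate numbers the level in CM + Rux was 0.216 to 0.284 of that in CM. The fall was 3.93-fold (log2 fold change -1.98, SE 0.404, adjusted p = 0.011), and all CM + Rux samples lay above both DMEM samples. The call was at the edge of the threshold when a sample was left out: leaving out CM replicate 2 gave an adjusted p of 0.065, CM + Rux replicate 1 gave 0.067 and CM + Rux replicate 3 gave 0.054.

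Mmp13 and Mmp14 did not differ detectably between CM + Rux and CM. Mmp13 had 395, 277 and 391 CPM with ruxolitinib, within the range of the CM samples (log2 fold change -0.14, 95% confidence interval -0.53 to 0.24, adjusted p = 0.83). Mmp14 had 438, 504 and 631 CPM with ruxolitinib (log2 fold change 0.02, interval -0.55 to 0.59, adjusted p = 0.99). These intervals do not reach a fall of the size seen for Timp1. Timp2, at 101, 123 and 147 CPM, overlapped CM (log2 fold change 0.14, interval -0.22 to 0.49, adjusted p = 0.82).

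The other members had negative estimates that did not pass the test in the model of group means. The neutrophil marker sum was 152 to 173 CPM in CM + Rux, below the 227 to 266 CPM in CM, and the fibroblast (31.8 to 33.9 CPM) and B cell (0.356 to 0.630 CPM) sums were above CM. In the fibroblast list only Pdgfrb had a higher mean (13.03 CPM in CM, 19.51 CPM in CM + Rux). Its other markers had lower or equal means, among them Col1a1 (5.762 and 5.725 CPM) and Col1a2 (7.062 and 6.287 CPM). The part of these sums in the members' values was not tested. Mmp8 had 3.94, 4.34 and 5.04 CPM in CM + Rux, all below the 3 CM samples (log2 fold change -0.74, adjusted p = 0.29). Mmp9, with 22.2, 25.1 and 19.6 CPM, was also below CM in all samples (log2 fold change -0.49, adjusted p = 0.42), as was Timp3 at 0.998, 1.02 and 0.865 CPM (log2 fold change -0.62, adjusted p = 0.42). Mmp12, with 583, 389 and 342 CPM, overlapped CM (log2 fold change -0.40, adjusted p = 0.57), and so did Mmp19 with 104, 239 and 93.1 CPM (log2 fold change -0.67, adjusted p = 0.46). Samples with the same replicate number deviated together across genes, and with the number as a block 3 members were called lower: Timp1, Mmp8 (log2 fold change -0.73, adjusted p = 0.047) and Mmp19 (log2 fold change -0.72, adjusted p = 0.030). Mmp12 under the block had an adjusted p of 0.0012 but a log2 fold change of -0.42, short of the 0.5 required. For Mmp19 the ratio of CM + Rux to CM was 0.540 to 0.710 within the replicate numbers, and for Mmp12 it was 0.664 to 0.796.

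In DMEM, without CM, the edgeR test called no member with ruxolitinib. The count was 0 of 9 in either direction, with 1 member (Mmp9) below an unadjusted p of 0.05, 0 by DESeq2, and 0.00% of all genes called higher and 0.970% lower. Timp1 had 0.946 and 1.64 CPM in DMEM and 0.877, 2.35 and 1.39 CPM in DMEM + Rux (log2 fold change 0.39, 95% confidence interval -1.12 to 1.89, adjusted p = 1). Mmp12 had 325, 208 and 213 CPM with ruxolitinib, Timp2 had 229, 274 and 295 CPM, and both overlapped DMEM. Mmp9 had 7.99, 7.82 and 5.50 CPM with ruxolitinib against 18.6 and 6.34 CPM without it (log2 fold change -0.83, adjusted p = 0.64). That estimate came from DMEM replicate 1: it was 0.16 without this sample, and -1.39 with an adjusted p of 0.0020 without DMEM replicate 2. Without a filter on low counts Mmp9 was called lower (adjusted p = 0.033).

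The difference between the ruxolitinib effects in CM and in DMEM was called for 0 of 9 members by the edgeR test and 0 by DESeq2, with 0.234% of all genes called higher and 0.178% lower. Timp1 (difference in log2 fold change -2.36, SE 0.798, adjusted p = 0.28) and Mmp8 (-1.28, SE 0.512, adjusted p = 0.43) were the 2 members below an unadjusted p of 0.05. A larger response of Timp1 to ruxolitinib in CM than in DMEM was therefore not shown by this model, and Timp1 without CM rests on 19 to 105 counts per sample. The call changed with the replicate number as a block, where Timp1 (difference -2.32, adjusted p = 0.00091) and Mmp12 (-0.56, adjusted p = 0.0096) were called, and without a filter on low counts, where Timp1 was called (adjusted p = 0.0030). The DMEM groups share 2 replicate numbers.

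**Figure D2:**
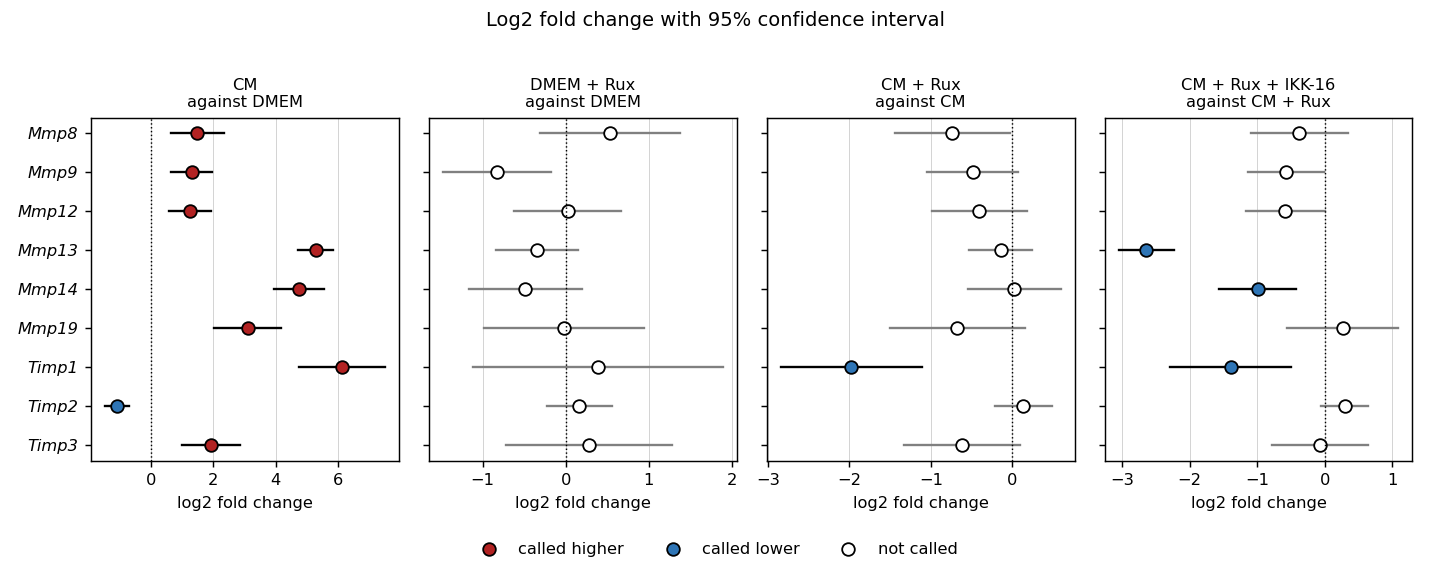
Log2 fold changes (x axis, a separate range in each panel) of the 9 genes in 4 comparisons, with lines for the 95% confidence interval and filled points for genes called. All 9 points are filled for CM against DMEM, 0 for ruxolitinib in DMEM, Timp1 alone for ruxolitinib in CM, and Mmp13, Mmp14 and Timp1 when IKK-16 was added.

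Adding IKK-16 to CM and ruxolitinib lowered Mmp13, Mmp14 and Timp1. This comparison asks which genes still need IKK when JAK1/2 is inhibited. The 3 members called lower (and 0 higher) stand beside 3.66% of all genes called lower and 4.07% called higher. At an unadjusted p below 0.05 the edgeR test gave 5 lower (with Mmp9 and Mmp12) and 0 higher, and DESeq2 called 3 lower and 0 higher. The neutrophil marker sum (121 to 131 CPM with IKK-16 against 152 to 173 CPM) and the fibroblast sum (16.1 to 28.5 against 31.8 to 33.9 CPM) were also lower without overlap, and their part was not tested. The largest difference in the fibroblast list was in Pdgfrb (10.16 CPM with IKK-16 against 19.51 CPM). Col1a1, Col1a2, Pdgfra and Dcn also had lower means, and Col3a1, Lum and Thy1 had higher means. Mmp13 had 395, 277 and 391 CPM in CM + Rux and 58.7, 50.3 and 61.1 CPM with IKK-16. The groups were far apart, and with IKK-16 every sample still lay above the DMEM samples. The fall was 6.25-fold (log2 fold change -2.64, SE 0.191, adjusted p = 7.2e-06), and within replicate numbers the level with IKK-16 was 0.148 to 0.182 of that without it. This call held without each sample in turn.

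Mmp14 fell from 438, 504 and 631 CPM to 204, 236 and 349 CPM, again without overlap. The fold was 1.99 (log2 fold change -0.995, SE 0.267, adjusted p = 0.023). Timp1 fell from 14.0, 33.0 and 19.5 CPM to 4.56, 14.0 and 6.96 CPM. Its ranges nearly touched, with the highest sample with IKK-16 just under the lowest of CM + Rux, and each replicate number was lower, to 0.325 to 0.425 of its level (2.63-fold, log2 fold change -1.40, SE 0.416, adjusted p = 0.038). The calls of these 2 genes depended on single samples. For Mmp14 the adjusted p was 0.083 without CM + Rux replicate 3, 0.10 without CM + Rux + IKK-16 replicate 1 and 0.067 without CM + Rux + IKK-16 replicate 2. For Timp1 it was 0.17 and 0.058 without CM + Rux replicate 2 or 3, 0.15 and 0.12 without CM + Rux + IKK-16 replicate 1 or 3, and 0.098 in a model of only the groups compared.

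Mmp12 had 413, 243 and 221 CPM with IKK-16, and its ranges overlapped those of CM + Rux (log2 fold change -0.58, adjusted p = 0.17). Replicate 1 was highest in every group of 3, and within replicate numbers the ratio was 0.626 to 0.708. With the replicate number as a block Mmp12 was called as the fourth member lower (log2 fold change -0.60, adjusted p = 5.2e-05). Mmp9 had 13.0, 16.5 and 15.6 CPM with IKK-16, below all CM + Rux samples, and did not pass (log2 fold change -0.57, adjusted p = 0.17). Mmp9 was called without a filter on low counts (adjusted p = 0.039, with Mmp12 at 0.025) and in the model of only these groups (0.033).

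Mmp19 was not called. With IKK-16 it had 164, 244 and 118 CPM, and its estimate was positive and did not pass (log2 fold change 0.26, 95% confidence interval -0.56 to 1.09, adjusted p = 0.71). Timp2 had 135, 140 and 180 CPM (log2 fold change 0.30, adjusted p = 0.26), higher than CM + Rux in 3 of 3 replicate numbers. Over the alternative settings described below its adjusted p was 0.0032 to 0.64, with log2 fold changes of 0.15 to 0.43 and no call. Mmp8 with 2.53, 2.85 and 4.84 CPM (log2 fold change -0.38, adjusted p = 0.50) and Timp3 with 0.902, 1.19 and 0.670 CPM (log2 fold change -0.08, adjusted p = 0.91) did not pass either.

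**Figure D3:**
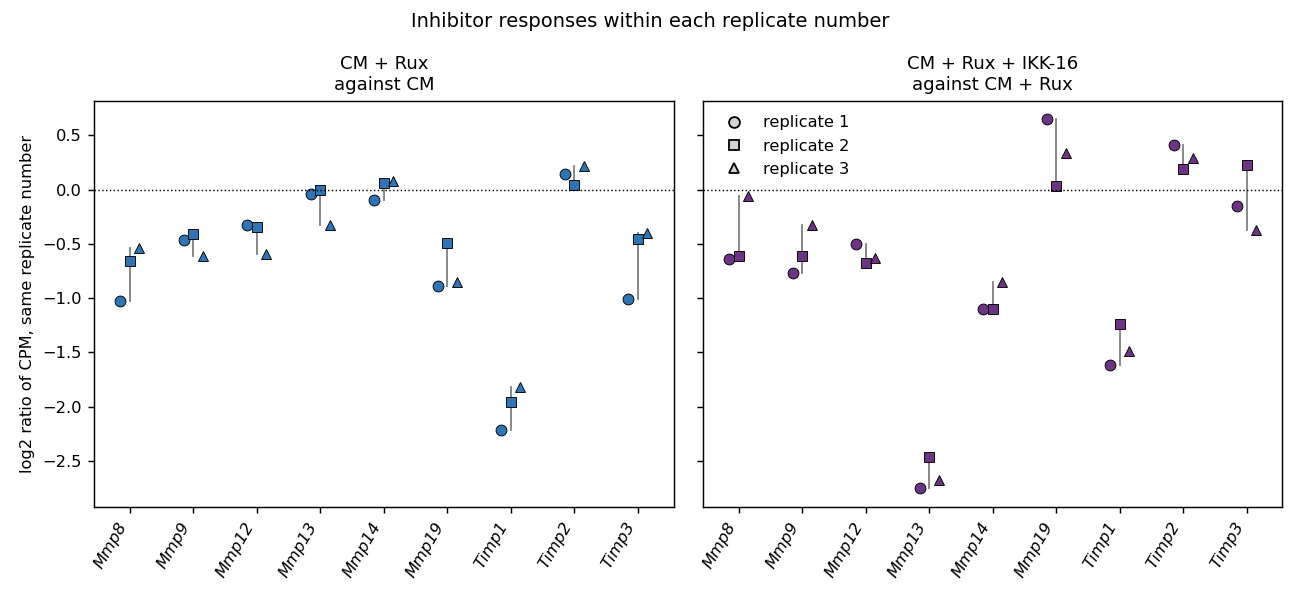
Log2 ratio of CPM (y axis) between samples of the same replicate number for each gene, with ruxolitinib in CM at the left and IKK-16 added to CM and ruxolitinib at the right. Timp1 was below 0 in all 3 replicate numbers in both panels, Mmp13 lay between -0.33 and 0 at the left and between -2.75 and -2.46 at the right, and Mmp19 was below 0 at the left and above 0 at the right.

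Relative to CM alone, both inhibitors together lowered 6 of 9 members and raised 0, beside 6.13% of all genes called lower and 6.60% higher. At an unadjusted p below 0.05 the edgeR test gave the same 6 lower and 1 higher (Timp2), and DESeq2 called 6 lower and 0 higher. The neutrophil (121 to 131 CPM against 227 to 266 CPM in CM), osteoclast (66.4 to 83.1 against 95.7 to 155 CPM) and epithelial (0.184 to 0.747 against 0.815 to 1.45 CPM) marker sums were also lower and the B cell sum (0.398 to 0.747 against 0.122 to 0.267 CPM) higher, all without overlap, and their part was not tested. In the osteoclast list only Acp5 had a lower mean (32.21 CPM against 95.75 CPM in CM). Atp6v0d2 (29.28 against 15.29 CPM), Ctsk, Dcstamp, Ocstamp and Oscar had higher means, and Calcr was at 0 CPM in both groups. The 6 were Mmp8, Mmp9, Mmp12, Mmp13, Mmp14 and Timp1, and none of them overlapped its CM samples. The share of all genes without such overlap was not computed here either. Timp1 had the largest fall, 10.3-fold (log2 fold change -3.37, SE 0.433, adjusted p = 0.00012), followed by Mmp13 with 6.91-fold (log2 fold change -2.79, SE 0.192, adjusted p = 1.3e-06). Mmp8, Mmp9, Mmp12 and Mmp14 fell by 1.96-fold to 2.17-fold, with adjusted p from 0.011 to 0.026. Timp2 was above CM in every sample but did not pass (log2 fold change 0.43, SE 0.164, adjusted p = 0.075), Mmp19 overlapped CM (log2 fold change -0.41, adjusted p = 0.48), and Timp3 had a log2 fold change of -0.69 (adjusted p = 0.15). Timp2 had adjusted p from 0.00016 to 0.28 over the alternative settings described below, with log2 fold changes of 0.29 to 0.52 and no call. Timp1 and Mmp13 were called without any of the samples in turn. The calls of Mmp8 (adjusted p 0.068, 0.052 and 0.054 without CM replicate 1, 2 or 3, and 0.11 and 0.073 without CM + Rux + IKK-16 replicate 1 or 2), Mmp9 (0.052 without CM + Rux + IKK-16 replicate 1), Mmp12 (0.075 without CM replicate 1, and 0.058 and 0.078 without CM + Rux + IKK-16 replicate 2 or 3) and Mmp14 (0.060 without CM replicate 3, and 0.084 and 0.053 without CM + Rux + IKK-16 replicate 1 or 2) were not. This comparison shares its samples with the 2 comparisons before it and is no independent support for them.

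The samples with a 2 h label differed from the 4 h samples of the same treatment in 5 members. Mmp9, Mmp12, Mmp13 and Mmp14 were called lower and Timp2 higher, beside 10.7% and 12.6% of all genes. The neutrophil (149 to 151 CPM) and fibroblast (22.1 to 30.7 CPM) marker sums lay below those of the 4 h samples, and their part was not tested. In the fibroblast list Pdgfrb (10.81 CPM at 2 h, 19.51 CPM at 4 h), Col3a1, Pdgfra and Dcn had lower means at 2 h. Col1a1 (7.346 and 5.725 CPM) and Col1a2 (6.912 and 6.287 CPM) had higher means at 2 h. Mmp13 had 81.4 and 105 CPM in CM + Rux 2 h against 277 to 395 CPM at 4 h (log2 fold change -1.93, SE 0.217, adjusted p = 1.9e-05). Timp2 had 232 and 262 CPM, close to its DMEM level and above the 101 to 147 CPM at 4 h (log2 fold change 0.997, SE 0.180, adjusted p = 0.00075). Both were called without each sample in turn. Mmp14 with 227 and 264 CPM (log2 fold change -1.10, adjusted p = 0.012), Mmp12 with 227 and 234 CPM (log2 fold change -0.93, adjusted p = 0.030) and Mmp9 with 12.5 and 10.9 CPM (log2 fold change -0.93, adjusted p = 0.028) were about 1.90-fold to 2.14-fold lower. Mmp12 in the 2 h samples lay within the range of DMEM, while Mmp14 was above it. Mmp19 with 90.8 and 38.7 CPM (log2 fold change -1.16, adjusted p = 0.056) and Timp1 with 13.6 and 10.6 CPM (log2 fold change -0.87, adjusted p = 0.16) did not pass, and neither did Mmp8 and Timp3. With 2 samples the calls were fragile: Mmp14 was lost without CM + Rux 2 h replicate 2 (0.090), Mmp12 without either 2 h sample (0.12 in both) or CM + Rux replicate 1 (0.11), and Mmp9 without either 2 h sample (0.085 and 0.15) or CM + Rux replicate 1 or 2 (0.053 and 0.067), whereas Mmp19 was called lower without CM + Rux 2 h replicate 2 (0.026) and without CM + Rux replicate 1 or 3 (0.045 and 0.033).

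Levels of different genes were compared per length, as RPKM (CPM divided by the summed exon length in kilobases). These lengths take all annotated exons of a gene (7237 bases for Mmp12, 2673 for Mmp13), whichever transcripts were present. Orders, shares and ratios between genes depend on them. In DMEM the order was Timp2 (61.1 RPKM), Mmp12 (33.8 RPKM) and Mmp19 (7.65 RPKM), with no overlap between these neighbours. Mmp13, Mmp9 and Mmp14 followed at 3.20 to 3.78 RPKM and overlapped. In CM the first was Mmp13 with 147 RPKM, and the 5 members from Mmp13 through Timp1 (98.5 RPKM), Mmp14, Mmp12 and Mmp19 (65.8 RPKM) each overlapped the next, ahead of Timp2 with 28.9 RPKM. With ruxolitinib Timp1 dropped to 25.0 RPKM, behind Timp2 with 31.8 RPKM and overlapping it. In CM + Rux + IKK-16 Mmp13 had 21.2 RPKM, below Timp2 with 38.9 RPKM, without overlap. Mmp9, Mmp8 and Timp3 were the last 3 in every group with CM.

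The 6 metalloproteinases summed to 44.6 and 61.5 RPKM in the DMEM samples and 360 to 414 RPKM in CM. Mmp12 made up 62.0% and 65.0% of the sum in DMEM and 17.2% to 25.4% in CM, where Mmp13 made up 28.8% to 44.4%. The sum was 318 to 340 RPKM in CM + Rux, below all CM samples, and 152 to 167 RPKM with IKK-16. The 3 TIMPs summed to 54.7 and 70.4 RPKM in DMEM, 97.1 to 175 RPKM in CM, 41.9 to 68.9 RPKM in CM + Rux and 39.9 to 54.1 RPKM with IKK-16. Timp2 was 97.3% and 98.0% of the TIMP sum in DMEM, 17.5% to 29.5% in CM, 45.9% to 63.0% in CM + Rux and 69.3% to 86.8% with IKK-16. The metalloproteinase sum per TIMP sum was thus 0.633 and 1.13 in DMEM, 2.05 to 4.11 in CM, 4.62 to 8.10 in CM + Rux and 2.80 to 4.12 with IKK-16. The CM + Rux samples all had a higher ratio than the CM samples. These are ratios of RNA levels, with no test, and say nothing of enzyme activity.

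**Figure D4:**
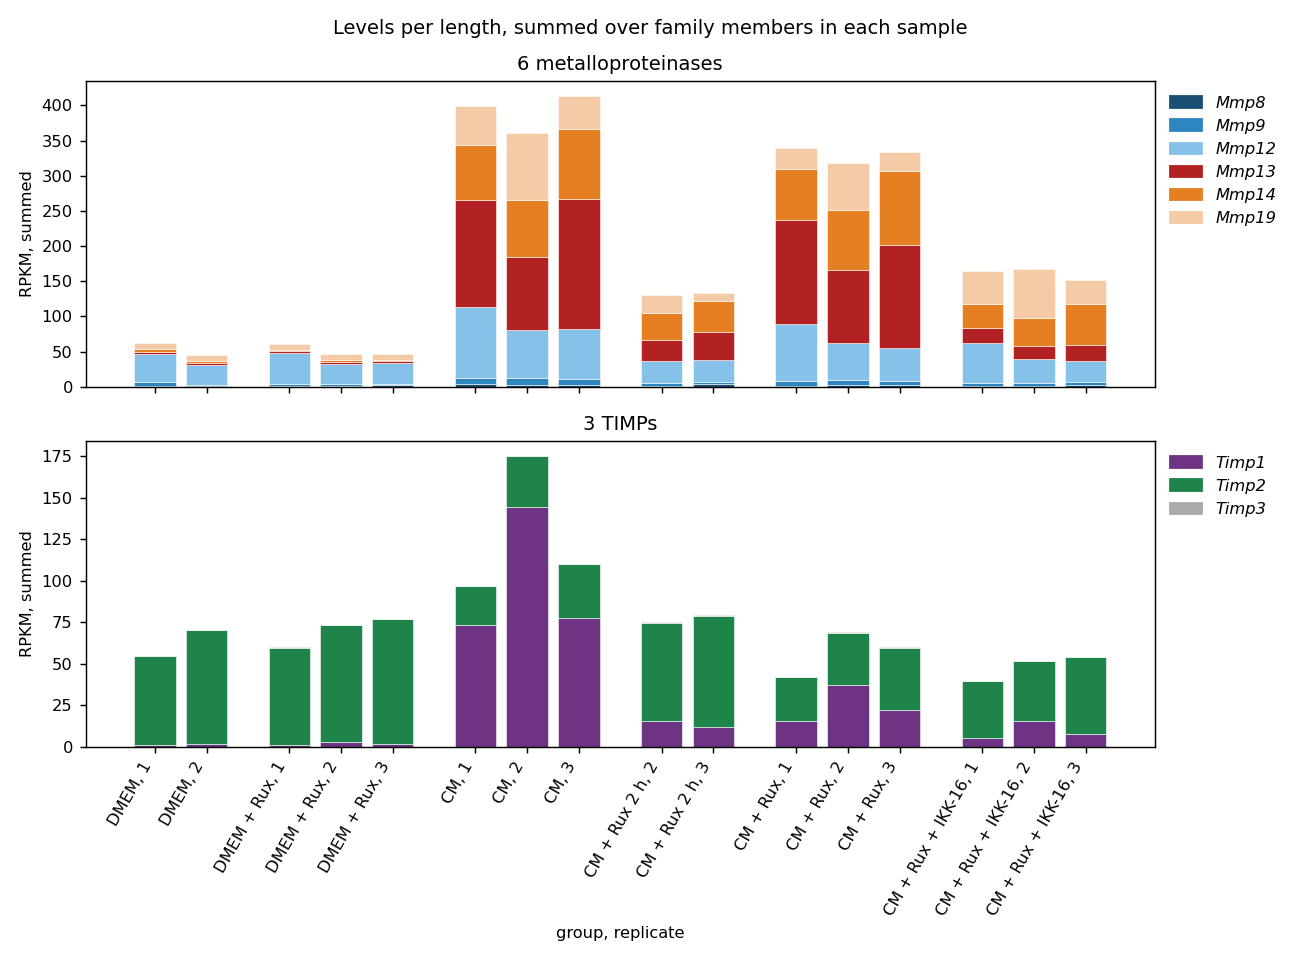
Summed RPKM (y axis, from 0) of the 6 metalloproteinases (top) and the 3 TIMPs (bottom) in each sample, stacked by gene. Mmp12 and Timp2 made up most of the DMEM bars, Mmp13 was the largest part of each CM bar of metalloproteinases and Timp1 of each CM bar of TIMPs, Timp1 shrank in CM + Rux, and Mmp13 shrank with IKK-16.

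Across the 16 samples the closest pair within the family was Mmp13 and Mmp14 (Pearson r = 0.946 of log2(CPM + 0.5)), and Timp2 had negative values with all 8 others, from -0.27 with Mmp8 to -0.88 with Mmp12. The samples share group effects of CM, so these are descriptions. Among the 11559 genes averaging 1 CPM or more, the closest to Mmp13 were Tcp1 (r = 0.992), Smurf2 (0.987) and Acvr1b (0.985). Those most like Mmp14 were Sod2 (0.991), Src (0.990) and Msantd3 (0.990). For Mmp19 they were Crem (0.988), Psmc1 (0.984) and Zkscan6 (0.980), for Timp1 Pop4 (0.981), Map3k8 (0.981) and Arid5a (0.980), and for Timp2 Scarb2 (0.984), Hacd4 (0.982) and Sgsh (0.982). The other members had looser neighbours, with Cpsf4 (0.956), Tfe3 (0.953) and Noc4l (0.949) for Mmp9, Xab2 (0.927), Ormdl2 (0.910) and Slc41a1 (0.900) for Mmp12, Arnt (0.908), Atp11b (0.907) and Ap1g1 (0.898) for Timp3, and Fzd7 (0.906), mt-Rnr2 (0.869) and Papss2 (0.839) for Mmp8.

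Other genes of the same biology were described from fixed lists. Of 17 further metalloproteinase genes only 4 passed the filter on low counts, and in CM 2 were called higher and 1 lower (median log2 fold change 1.72). Mmp25, a leukocyte metalloproteinase anchored to the membrane, was at 0.457 ± 0.357 CPM in DMEM (n = 2) and 53.1 ± 15.7 CPM in CM (n = 3), with a log2 fold change of 6.75 (SE 0.733, adjusted p = 3.2e-06). Mmp10, a stromelysin of the chromosome 9 cluster, rose by 2.95 and Mmp11 fell by 0.70 on the log2 scale. Mmp10 and Mmp25 passed the filter only through samples with CM (Mmp10 only through the 3 CM samples), so their rise is not independent of the filter. With ruxolitinib in CM the edgeR test called 0 of these 4 (2 lower at an unadjusted p below 0.05, 0 called by DESeq2), and IKK-16 lowered Mmp10 (log2 fold change -2.93) and Mmp25 (-1.50). Mmp10 rests on few counts there, with means of 0.804 CPM in CM + Rux and 0.103 CPM with IKK-16 and at most 41 counts in any sample. Of 7 other metalloproteinase inhibitors 1, Reck, passed the filter, and it was not called in CM (log2 fold change -0.26), with ruxolitinib or with IKK-16 (0 at an unadjusted p and 0 by DESeq2 in all 3 comparisons).

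Among 16 genes of metalloproteinase activation, binding and clearance, 13 were tested, and in CM the edgeR test called 8 higher and 0 lower (median log2 fold change 1.63), with 1 lower at an unadjusted p below 0.05 and 0 by DESeq2. Lcn2 rose by 5.84 on the log2 scale. Furin, which cleaves the proenzyme of MMP14, was also called higher (log2 fold change 1.92). Of the 8 called higher, 2 (Lcn2 and Plat) passed the filter only through samples with CM. Ruxolitinib in CM raised Itgb3, an integrin subunit (log2 fold change 1.26), and lowered 0 of the 13 (3 at an unadjusted p, 0 by DESeq2). Genes lowered by IKK-16 included Lcn2 (log2 fold change -3.20) and Plat (-1.29), the tissue plasminogen activator.

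Of 19 ADAM and ADAMTS proteases 12 were tested, with 3 called higher and 3 lower in CM (median log2 fold change 0.18). Adamts4 (log2 fold change 6.03) and Adamts9 (5.54), which cleave proteoglycans, had the largest rises of those tested, though both passed the filter only through samples with CM (Adamts9 only through the 3 CM samples). Adamts10 (-1.43) and Adam19 (-1.21) had the largest falls. With ruxolitinib in CM 0 of the 12 were called by edgeR (3 higher and 1 lower at an unadjusted p, 1 higher by DESeq2), and IKK-16 lowered Adamts4 (-2.84). Cathepsins and other lysosomal or matrix proteases, 12 of 12 tested, had 2 called higher (Ctsl, log2 fold change 1.55, and Ctsc, 0.52) and 2 lower (Ctso, -0.62, and Lgmn, -0.57), with a median of -0.04. With ruxolitinib 0 of these were called by edgeR (1 higher and 1 lower at an unadjusted p, 0 by DESeq2) and with IKK-16 Ctsc was lower (-1.03). Of 15 matrix components 13 were tested, and by edgeR 6 were higher in CM and 0 lower (1 lower at an unadjusted p and by DESeq2, median 0.79), led by Thbs1 (log2 fold change 7.22) and Tnc (4.34), both matrix glycoproteins. With ruxolitinib in CM edgeR called 0 of them (2 higher at an unadjusted p, 0 by DESeq2), and IKK-16 lowered Vcan (-1.998), Tnc (-1.60) and Col4a1 (-1.36). The shares of all genes called in these 3 comparisons, given above, and medians of all genes between -0.005 and 0.007 are the values to read these counts against.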

How the data were processed

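RNA of 16 BMDM samples in 6 groups, with groups and replicate numbers taken from the titles, was analysed. Reads came from a stranded mRNA library. The authors trimmed them with Trimmomatic 0.33, aligned them to GRCm38 with HISAT2 2.1.0 and counted fragments per gene by strand with featureCounts 1.6.2 on the Ensembl 100 annotation, with a mapping quality of at least 10. The deposited counts are whole numbers without scaling. Positions came from the deposited count table. Symbols came from the GENCODE M21 annotation, which named 55141 of 55487 genes, and the other 346 hold at most 0.0459% of a sample's counts. No replicates were copies (chi-square per degree of freedom 14.2 to 54.4).

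RLE (relative log expression) scaling was applied, and the 12372 genes above 1 CPM (of the total count) in at least 2 samples were kept, as in the study's methods. The quasi-likelihood test of edgeR 4.0.16 (with limma 3.58.1, R 4.3.3) was run on 1 model of 6 groups and all samples, for 7 comparisons that share samples. Adjusted p-values are Benjamini-Hochberg values over all genes tested. Only the quasi-likelihood test was run on simulated counts, for CM against DMEM, ruxolitinib in CM and IKK-16 added to both. The alternatives were TMM scaling, 2 other filters, no fold threshold, DESeq2 1.42.0, a replicate block, only the groups compared, and leaving out each sample. Same-numbered samples deviated together in the 3 comparisons with 3 pairs (correlations of deviations 0.391 to 0.631), so the block is given there. The numbers come from the sample titles.

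Members and lists were chosen with earlier results of these data known. Named genes were all members, in each list the 2 largest changes in each direction among called genes in 3 comparisons, and for each member the 3 genes with the highest Pearson r; Furin, Plat and Col4a1 were named after their values were seen, and 1 gene that the rule named is not reported here. The markers were fixed lists.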

Additional observations from a re-analysis of the deposited data

How the results depend on the processing

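Of the members' values under all alternatives, 759 kept their direction and side of the threshold, 33 lost a call, 19 gained one and 26 changed sign, all 26 of them changes that were not called. TMM scaling, another filter (edgeR's filterByExpr), DESeq2 and no fold threshold changed no member's call. CM against DMEM kept 9 called members under the 7 alternatives other than leaving out a sample. In CM + Rux against CM the count of members called was 3 with the replicate block, 2 in a model of only the groups compared (Timp1 and Mmp8) and 0 to 1 when a sample was left out. With IKK-16 added it was 5 without a filter on low counts and 1 to 3 when a sample was left out, and for both inhibitors against CM it was 3 to 5. In DMEM + Rux against DMEM it was 1 without a filter (Mmp9) and 0 to 1 when a sample was left out. For the difference of ruxolitinib effects it was 1 without a filter (Timp1) and 2 with the replicate block (Timp1, adjusted p = 0.00091, and Mmp12, adjusted p = 0.0096), where the groups share only 2 or 3 numbers. For 2 h against 4 h it was 3 to 6 when a sample was left out, and both the block, on 2 pairs, and no filter on low counts added Mmp19 and Timp1. The block changed no other call than those given here and in the report.

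Sign changes with the block were Mmp19 with ruxolitinib in DMEM (log2 fold change 0.18), Timp2 in the difference of ruxolitinib effects (0.075) and Timp3 at 2 h against 4 h (0.016). When a sample was left out, log2 fold changes with ruxolitinib in CM ranged from -0.34 to 0.053 for Mmp13, -0.13 to 0.14 for Mmp14 and -0.005 to 0.26 for Timp2. With IKK-16 they ranged from -0.049 to 0.82 for Mmp19 and -0.30 to 0.11 for Timp3. With ruxolitinib in DMEM they ranged from -1.39 to 0.16 for Mmp9, -0.22 to 0.31 for Mmp12, -0.049 to 0.024 for Mmp19, -0.10 to 0.79 for Timp1, -0.006 to 0.35 for Timp2 and -0.28 to 0.98 for Timp3. The difference of ruxolitinib effects ranged from -0.65 to 0.90 for Mmp9 and -0.22 to 0.14 for Timp2, and 2 h against 4 h from -0.25 to 0.87 for Mmp8 and -0.47 to 0.19 for Timp3. Depth limits Timp3, Mmp8 and, without CM, Timp1. The cause of these changes was not tested.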
